A study of Mus musculus with 6 samples.

Results

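The genes described here encode the proteins of the mitochondrial ribosome. They are the genes of the deposited table whose symbol is Mrpl or Mrps followed by a number, pseudogene names left out. The rule took 77 of 34745 genes, 48 named Mrpl and 29 named Mrps, and did not use any measured value. All 77 passed the filter on low counts, which left 12967 genes for testing. They lie on 17 chromosomes.

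The mitochondrial ribosome translates the few proteins encoded by mitochondrial DNA, which are core subunits of the respiratory chain and of ATP synthase. Its RNA comes from mitochondrial DNA, but its proteins are encoded in the nucleus, made in the cytosol and imported, so the members below must be supplied together with mitochondrial rRNA to build a small subunit, which reads the mRNA, and a large subunit, which forms peptide bonds. Some of the proteins have a counterpart in bacterial ribosomes and others are found in mitochondria only. In T cells, activation is accompanied by growth of the mitochondrial compartment.

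The libraries came from naive CD4 T cells of the spleen of 6 week old female C57BL/6 mice, a common inbred strain. In both groups the cells were stimulated for 4 days through plate-bound anti-CD3 and anti-CD28, with antibodies to IFNγ and IL-4 (5 µg/ml each), IL-6 (20 ng/ml), IL-23 (10 ng/ml), TGFβ (2 ng/ml) and IL-2 (5 ng/ml), which is a mixture that drives cells towards Th17, the helper T cells that secrete IL-17. The medium was RPMI with 10% serum and 55 µM mercaptoethanol. PM2.5, fine airborne particulate matter, was given at 100 µg/ml from 6 hours after stimulation in the PM2.5 group (3 libraries), and PBS, the vehicle, in the control group (3 libraries). The source of the particles is not given in the labels, nor do these say whether the 3 libraries of a group came from separate mice or cultures, so the p-values measure the spread between these libraries, which may be technical. The comparison asks which transcripts differ when Th17 cells are raised with the particles.

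Total counts were 19511561 to 22353131 in the PBS libraries and 25397965 to 27215853 in the PM2.5 libraries. The correlation of log2 CPM across genes was 0.995 to 0.996 between libraries of a group and 0.949 to 0.950 between groups. Levels below are CPM, counts relative to the TMM-scaled size of the library. Where levels of different genes are set side by side they are FPKM, a value per length and per library total without TMM scaling. T cell markers were abundant, and of 7 (Cd3d, Cd3e, Cd3g, Cd4, Il17a, Il17f and Il23r) 6 were lower with PM2.5 and 0 higher. Their summed level was 3760 to 3863 CPM in PBS and 2754 to 3254 CPM in PM2.5. The summed levels of the marker lists for other cells were lower still, and most of these also differed between the groups. They were 1.01 to 1.65 against 0.242 to 0.489 CPM for 6 B cell genes, with Ms4a1 at 0, 4.83 to 6.19 against 3.01 to 3.57 for 6 macrophage genes, with Lyz2 at 0, and 5.19 to 6.14 against 0.564 to 0.705 for 5 neutrophil genes, nearly all of it Ly6g, with S100a8, S100a9 and Elane at 0. For 5 dendritic cell genes the sum was 0.442 to 0.653 against 2.43 to 3.30 CPM, nearly all Zbtb46 with Clec9a and Siglech at 0, and for 5 NK genes 24.1 to 26.0 against 18.6 to 20.3, with Ncr1 at 0. Of the 3 NK genes tested, Klrc1 and Klre1 were lower and Eomes was higher, at 0.0753 ± 0.0216 CPM with PBS and 0.973 ± 0.175 with PM2.5 (SD, n = 3; log2 fold change 3.58, edgeR adjusted p = 2.4e-05). The 5 CD8 and γδ T cell genes summed to 73.7 to 75.5 against 28.8 to 32.2 CPM, with 4 lower and Cd8b1 higher (log2 fold change 0.55), the 5 stromal and endothelial genes to 80.7 to 86.5 against 48.1 to 51.0 CPM, nearly all Pecam1 with Col3a1 at 0, and the 4 globin genes were at 0. The part of these differences in the results below was not tested, and in bulk RNA a change in the share of some cells cannot be told apart from a change in RNA per cell.

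The RefSeq promoter table (GRCm38.p6, 250 bases before and 50 after each start) holds 68 of the 77 members. Their promoters were searched on both strands for 6 motifs of factors known at promoters of genes for mitochondria or ribosomes, and the shares below count each gene no more than once per motif. CCGGAAG, the site of ETS factors such as GABP, was in 36.8% of the members, 20.8% of the 9383 tested genes with a promoter in the table and 9.93% of all 27025 genes of the table. GCATGCGC, the core of the site of nuclear respiratory factor 1 (NRF1), was in 11.8%, 6.16% and 3.05%, and AAGATGGCG, bound by YY1, in 11.8%, 3.69% and 1.64%. The GC box GGGCGG was in 34 of 68 members and 69.2% of tested genes, the E-box CACGTG in 7.35% and 11.8%, and the ATF4 and CHOP element TGATGNAA in 0 of 68 members and 2.78% of tested genes. A match is a string of letters and not a shown binding site.

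The matches lay in members that rose, fell or did not pass. The ETS letters were in 8 of 29 members called higher with PM2.5, 4 of 9 called lower and 13 of 30 that did not pass the test. The NRF1 letters were in 5, 1 and 2 of these, and the YY1 letters in 4, 2 and 2. The stretches below hold the NRF1 matches upstream of the RefSeq start of 4 members that rose. The match is in capitals and the strand is that of the gene. A RefSeq start can lie inside the gene as annotated elsewhere. The stretch of Mrpl39 lies inside the gene of the deposited table, which reaches chr16:84735742. Those of Mrpl32 lie inside the gene of GENCODE M21, which reaches chr13:14613165. GCATGCGC and its reverse complement GCGCATGC can overlap in a single run, as they do in the first line and in those of Mrpl39 and Mrpl9, where 1 of the overlapping matches is capitalised.
Mrpl32, chr13:14613106-14613135, minus strand, match 87 bases before the start: ctttgacccttGCGCATGCgcaagaggggc
Mrpl32, chr13:14613085-14613114, minus strand, match 66 bases before the start: aagaggggcctGCGCATGCtctgagcgagg
Mrpl32, chr13:14613041-14613070, minus strand, match 22 bases before the start: gcggacttaacGCATGCGCtcagcccgcgt
Mrpl39, chr16:84735351-84735380, minus strand, match 125 bases before the start: caaggagaggcGCGCATGCgcccccgcgtg
Mrpl9, chr3:94443297-94443326, plus strand, match 28 bases before the start: gaggcgcagctGCGCATGCgcggggtcctt
Mrps18b, chr17:35916645-35916674, minus strand, match 223 bases before the start: aacggcccgacGCATGCGCactgggagcac

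ETS and YY1 letters upstream of the RefSeq start of members on both sides of the comparison are shown next. The match of Mrpl3 lies inside the gene of the deposited table, which starts at chr9:105053239. That of Mrpl36 lies inside the gene of GENCODE M21, which starts at chr13:73328513. Mrpl3, Mrps18a and Mrps27 rose, Mrpl27, Mrpl34 and Mrpl36 fell, and the match of Mrpl36 is that of YY1. The matches of Mrps27 and Mrpl36 are read on the strand opposite to the gene.
Mrpl3, chr9:105053238-105053266, plus strand, match 19 bases before the start: tgagaaacggaCCGGAAGtggcccggctg
Mrps18a, chr17:46110967-46110995, plus strand, match 26 bases before the start: acacccctgctCCGGAAGcggaagtgcac
Mrps27, chr13:99344727-99344755, plus strand, match 48 bases before the start: tggtaggaccaCTTCCGGcggaggcgggc
Mrpl27, chr11:94653725-94653753, plus strand, match 55 bases before the start: gtccgcaagacCCGGAAGtagatctatcc
Mrpl34, chr8:71464878-71464906, plus strand, match 37 bases before the start: aactacagctcCCGGAAGgccccgcggca
Mrpl36, chr13:73330968-73330996, plus strand, match 31 bases before the start: cgtgaccttaCGCCATCTTtcttcctggc

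Whole upstream windows are shown for 1 member that rose and 1 that fell, each the member with the largest change among those whose 250 bases hold no annotated exon of any gene (GENCODE M21). The ETS match and the GC box of Mrps22 are in capitals, and Mrpl41 has no match to any of the 6 motifs there.
Mrps22, chr9:98601680-98601929, minus strand: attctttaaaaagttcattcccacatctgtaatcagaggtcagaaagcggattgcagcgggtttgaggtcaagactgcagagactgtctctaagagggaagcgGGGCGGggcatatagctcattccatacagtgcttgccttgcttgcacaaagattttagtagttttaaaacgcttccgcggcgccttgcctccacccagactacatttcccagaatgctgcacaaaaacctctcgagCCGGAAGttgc
Mrpl41, chr2:24975099-24975348, minus strand: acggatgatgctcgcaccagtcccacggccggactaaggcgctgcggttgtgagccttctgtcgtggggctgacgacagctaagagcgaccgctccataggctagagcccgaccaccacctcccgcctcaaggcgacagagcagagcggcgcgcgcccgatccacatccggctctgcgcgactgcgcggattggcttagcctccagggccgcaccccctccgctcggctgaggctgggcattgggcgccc

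The summed level of the members was higher with PM2.5. The 77 genes together held 2556 to 2567 CPM in the 3 PBS libraries and 2830 to 2940 CPM in the 3 PM2.5 libraries, a ratio of 1.13 of the means, without overlap between the groups. In FPKM the same sum was 1112 ± 4.85 (SD, n = 3) with PBS and 1180 ± 23.9 (SD, n = 3) with PM2.5, a ratio of 1.06. The 2 ratios differ in library scaling as well as in length, since FPKM is not TMM-scaled. As a share of all counts, without TMM scaling, the members took 0.261% to 0.263% with PBS and 0.277% to 0.287% with PM2.5. The Mrps genes went from 333 ± 0.556 to 380 ± 1.60 summed FPKM and the Mrpl genes from 779 ± 4.36 to 800 ± 22.4 (SD, n = 3), the latter with overlapping groups. In TMM-scaled CPM the Mrpl sums did not overlap, at 1665 to 1669 with PBS and 1827 to 1925 with PM2.5. These sums are descriptions and carry no test.

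In edgeR's quasi-likelihood test, adjusted by Benjamini and Hochberg's method over all 12967 genes, 33 members were higher with PM2.5, 9 were lower and 35 did not pass the adjusted threshold of 0.05. The comparison is a broad one, since 70.6% of all genes tested passed it, 35.2% higher and 35.3% lower. Among the members 54.5% passed, 42.9% higher and 11.7% lower. The groups did not overlap in 50 members, or 64.9%, against 74.9% of all genes tested, and these 50 held all 42 that passed. No member passed with a change of 2-fold or more, against 18.9% of all genes tested. Of those that passed with 1.5-fold or more, 7 members were higher (9.09%, against 15.3% of all genes) and 0 lower (against 20.3%). The median log2 fold change was 0.11 for the members and -0.01 for all genes, with a member range of -0.56 to 0.92.

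This split depended on the scaling of the libraries. Scaled by library totals the members were 32 higher and 17 lower, and by upper quartiles 32 higher and 19 lower, so the higher share of called members was 78.6% as reported, 65.3% by totals and 62.7% by upper quartiles. Upper-quartile scaling moved the median of all genes by -0.11. The difference between the members' median and that of all genes was 0.12 under all 3 scalings. This says nothing of its stability, since a change of scaling shifts all genes by nearly the same amount. In other settings the difference was 0.0572 (filter at a mean of 5 CPM), 0.0828 (limma on log2(FPKM + 1)), 0.184 (no filter on low counts) and 0.203 (GC content and gene length offsets).

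**Figure D1:**
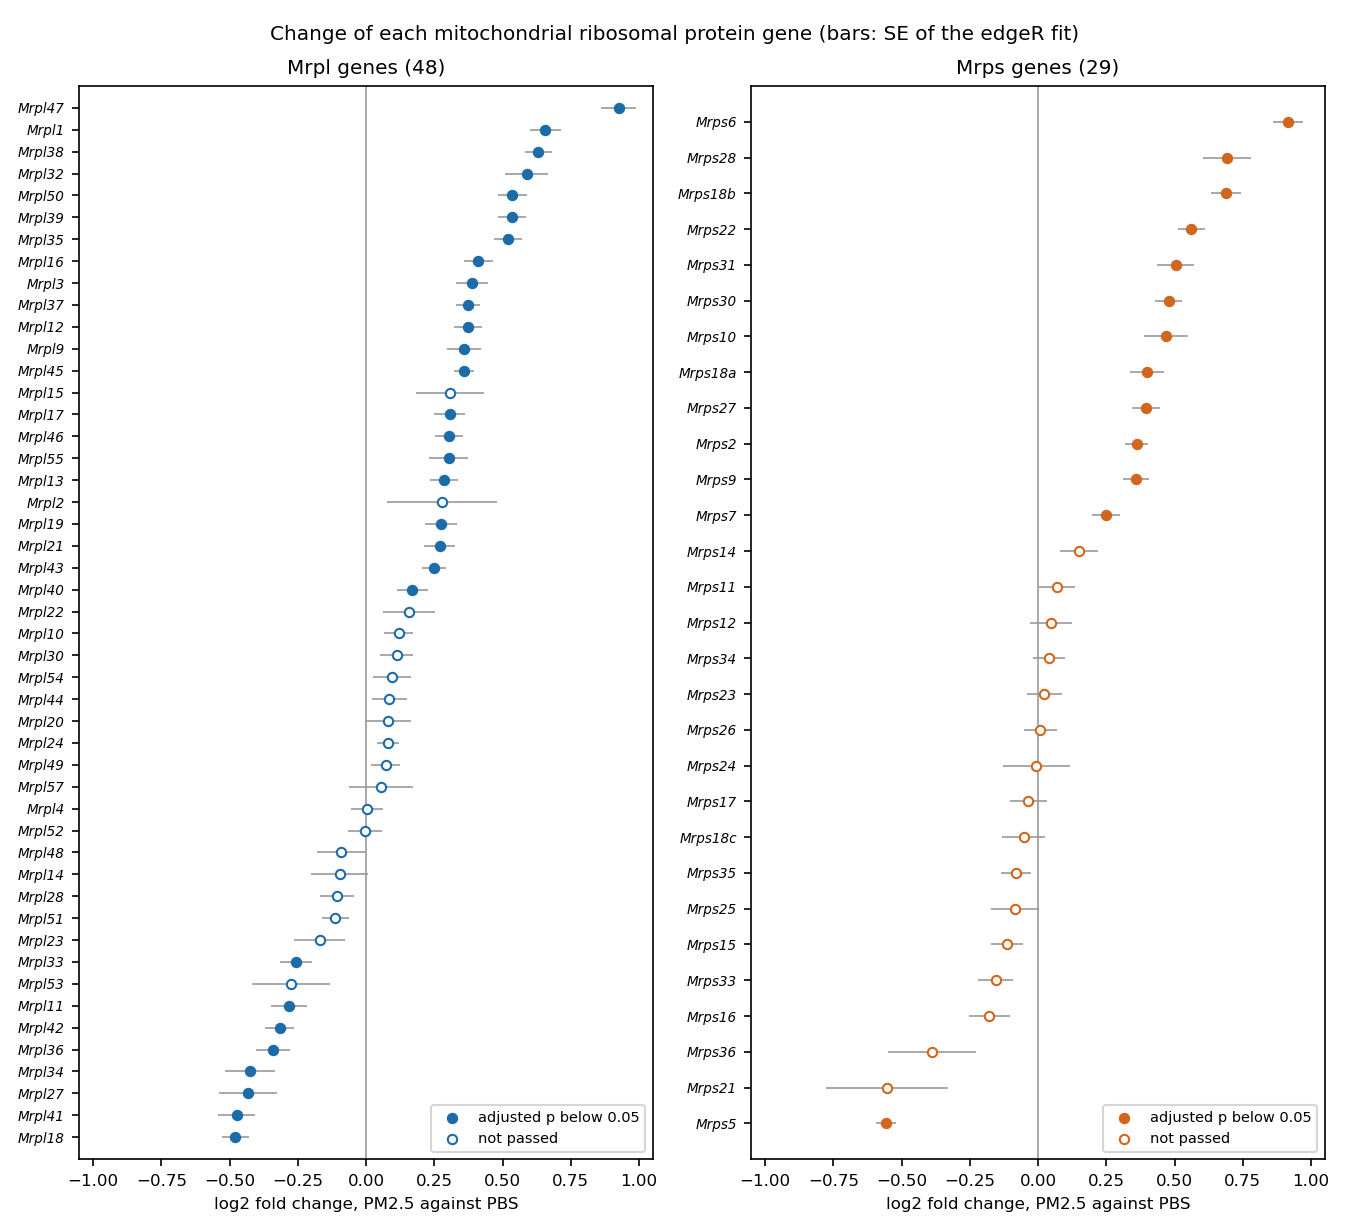
Log2 fold change of each of the 48 Mrpl genes (left, blue) and 29 Mrps genes (right, orange), PM2.5 against PBS, ordered by size, with the SE of the edgeR fit as bars. Filled points passed the adjusted threshold of 0.05: 21 Mrpl and 12 Mrps genes lie filled to the right of 0, and 8 Mrpl genes and Mrps5 lie filled to the left.

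By place in the ribosome, the large subunit has 50 members, since Mrps30 and Mrps18a belong to it despite their names. In it 23 were higher, 8 lower and 19 not passed, and the median log2 fold change was 0.16. The small subunit has 26 members, with 10 higher, 1 lower, 15 not passed and a median of 0.04. Mrps36 belongs to neither, as its product is a subunit of the 2-oxoglutarate dehydrogenase complex. The 46 members with a bacterial counterpart were 19 higher and 7 lower with a median of 0.13, and the 30 found in mitochondria only were 14 higher and 2 lower with a median of 0.09. Of all genes tested 35.2% were higher and 35.3% lower, so the small subunit's higher share was near that of all genes. No test was made between these classes.

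Mrpl47 showed the highest rise. It encodes the counterpart of bacterial L29, at the mouth of the tunnel through which the new chain leaves the ribosome, and lies at chr3:32725397-32737605 (mm10). Its level was 12.7, 13.2 and 12.7 CPM in the PBS libraries and 24.7, 25.3 and 23.3 CPM in the PM2.5 libraries. The PM2.5 libraries were all far above the PBS libraries. The log2 fold change was 0.92 (SE 0.06, edgeR adjusted p = 4.41e-07). Its exons share 452 bases with Actl6a and 616 with Ndufb5, both on the opposite strand, and neither of these passed the test (log2 fold changes of -0.03 and -0.28).

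Mrps6, the counterpart of a bacterial protein of the small subunit's platform, rose nearly as much. It measured 35.8, 39.1 and 37.3 CPM with PBS and 73.2, 66.4 and 72.1 CPM with PM2.5, again without overlap (log2 fold change 0.92, SE 0.05, edgeR adjusted p = 1.28e-07). The gene lies at chr16:92058270-92112227, and its exons share 159 bases on the same strand with Slc5a3, the sodium-coupled inositol carrier. Slc5a3 went from 31.9 ± 1.69 to 73.5 ± 2.82 CPM (SD, n = 3; log2 fold change 1.20, edgeR adjusted p = 1.44e-08), and how reads in the shared bases were divided is not given in the sources used here, so the value of Mrps6 is uncertain.

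Of the other small-subunit members, Mrps28 had 6.06, 6.25 and 6.58 CPM in the PBS libraries and 10.7, 9.79 and 9.99 in the PM2.5 libraries. Mrps18b had 31.5, 32.4 and 31.3 CPM with PBS and 52.4, 53.2 and 47.8 with PM2.5. In both genes every PM2.5 library exceeded every PBS library, and the log2 fold change was 0.69 (SE 0.09, edgeR adjusted p = 4.26e-05 for Mrps28; SE 0.06, edgeR adjusted p = 1.26e-06 for Mrps18b). Mrps22, a mitochondria-only protein of the small subunit, rose from 33.0 ± 1.33 to 48.7 ± 1.04 CPM (SD, n = 3) and Mrps31, another, from 20.6 ± 1.41 to 29.2 ± 1.18 CPM (SD, n = 3). Their log2 fold changes were 0.56 and 0.51 (edgeR adjusted p = 3.11e-06 and 6.95e-05).

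Mrps18 exists as 3 genes whose products occupy different places. Mrps18b rose, as above, and Mrps18a, whose product sits in the large subunit, rose from 28.4 ± 1.21 to 37.5 ± 2.38 CPM (SD, n = 3; log2 fold change 0.40, edgeR adjusted p = 0.000221). Mrps18c, the counterpart of bacterial S18, had 17.0 ± 1.45 CPM with PBS and 16.4 ± 0.521 with PM2.5 (SD, n = 3) and did not pass (log2 fold change -0.05, SE 0.08, edgeR adjusted p = 0.558). Its groups overlapped. The difference between the 3 genes was not tested.

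On the large subunit, Mrpl1, the protein of the mobile L1 stalk beside the tRNA exit site, had 20.9, 21.1 and 20.3 CPM with PBS and 32.7, 34.0 and 31.5 with PM2.5 (log2 fold change 0.66, SE 0.06, edgeR adjusted p = 2.53e-06). Mrpl38, a mitochondria-only protein of the central protuberance, had 30.7, 30.7 and 31.1 CPM with PBS and 45.8, 48.7 and 48.6 with PM2.5 (log2 fold change 0.63, SE 0.05, edgeR adjusted p = 9.79e-07). Mrpl32, which is cut to its mature form by the m-AAA protease before it joins the ribosome, had 23.6, 26.0 and 21.6 CPM with PBS and 36.2, 37.8 and 32.9 with PM2.5 (log2 fold change 0.59, SE 0.08, edgeR adjusted p = 7.48e-05). None of these overlapped between groups, and the PBS libraries of Mrpl32 spread more than those of the other genes. Mrpl50, Mrpl39 and Mrpl35 rose by log2 fold changes of 0.54, 0.53 and 0.52, from 27.7, 31.7 and 26.3 to 40.1, 46.0 and 37.8 CPM (edgeR adjusted p = 7.1e-06, 5.88e-06 and 6.35e-06).

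**Figure D2:**
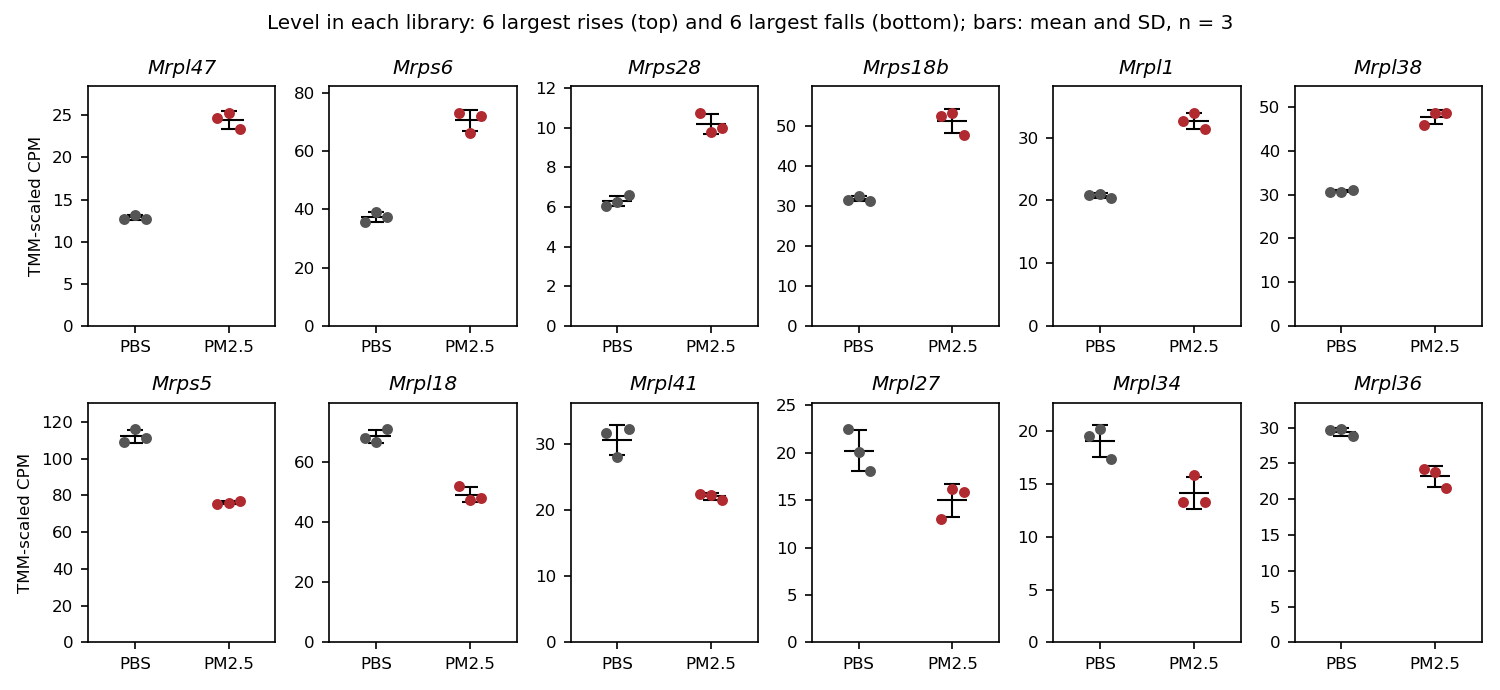
TMM-scaled CPM in each library for the 6 members with the largest rise (top) and the 6 with the largest fall (bottom) among those that passed; points are the 3 libraries of each group and bars the mean and SD. In each of the 12 genes the PM2.5 points lie all above or all below the PBS points.

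The further 21 members that rose did so by 1.12 to 1.39-fold (log2 fold changes of 0.17 to 0.48). In order of size they were Mrps30, Mrps10, Mrpl16, Mrps18a, Mrps27, Mrpl3, Mrpl37, Mrpl12, Mrps2, Mrpl9, Mrpl45, Mrps9, Mrpl17, Mrpl46, Mrpl55, Mrpl13, Mrpl19, Mrpl21, Mrpl43, Mrps7 and Mrpl40. On the opposite strand, exons of Mrpl13 share 330 bases with Mtbp and those of Mrpl43 507 bases with Twnk. Both partners were higher (log2 fold changes of 1.20 and 0.22, edgeR adjusted p = 2.54e-08 and 0.00398), so these 2 values are uncertain. Overlapping partners of Mrpl21 (Ighmbp2) and Mrps7 (Mif4gd) were lower. Mrps30 went from 40.9 ± 0.984 to 57.0 ± 2.40 CPM (SD, n = 3; log2 fold change 0.48, edgeR adjusted p = 8.91e-06). Mrpl12, the counterpart of bacterial L7/L12, which forms the stalk that recruits elongation factors, had 59.4, 58.3 and 60.9 CPM with PBS and 77.1, 82.2 and 72.0 with PM2.5 (log2 fold change 0.37, edgeR adjusted p = 9.22e-05). Mrpl45, which holds the ribosome to the inner membrane next to the tunnel exit, had 66.9, 68.5 and 70.5 CPM against 87.5, 88.4 and 88.2 (log2 fold change 0.36, edgeR adjusted p = 9.58e-06). The 3 PM2.5 libraries lay above all PBS libraries in both. The smallest called rise, that of Mrpl40 (log2 fold change 0.17, edgeR adjusted p = 0.0213), lost its call without PBS replicate 2 (adjusted p = 0.0656), without PBS replicate 3 (0.076) and without PM2.5 replicate 1 (0.0532), and in 9 of the 16 alternatives in all.

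By site on the large subunit, the 8 members at or near the tunnel exit were 4 higher, 0 lower and 4 not passed, with a median log2 fold change of 0.23. Those of the central protuberance were 4 higher (Mrpl38, Mrpl46, Mrpl55 and Mrpl40), 2 lower (Mrpl18 and Mrpl27) and 1 not passed. The 4 stalk members were 1 higher (Mrpl12), 1 lower (Mrpl11) and 2 not passed. These lists are short, and 35.2% of all genes tested were higher and 35.3% lower, so the counts are no trait of these sites.

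Mrps5 fell most among the members that passed and was the small subunit's only called fall. It encodes the counterpart of bacterial S5, a protein near the path by which mRNA enters. Its level was 109, 116 and 111 CPM in the PBS libraries and 75.3, 75.9 and 77.1 CPM in the PM2.5 libraries, well apart. The log2 fold change was -0.56 (SE 0.04, edgeR adjusted p = 2.97e-07). A region elsewhere in the genome, annotated as Gm13328, matches 1019 bases of its transcript at 98.4% identity, and how reads that fit both were counted is not given in the sources used here. Per length it held 13.3 FPKM with PBS and 8.65 with PM2.5.

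The other 8 falls were in the large subunit. Mrpl18, of the central protuberance, had 68.2, 66.8 and 71.1 CPM with PBS and 52.1, 47.6 and 48.2 with PM2.5 (log2 fold change -0.48, SE 0.05, edgeR adjusted p = 9.36e-06). Its exons share 141 bases with Tcp1, a chaperonin gene on the opposite strand that went the other way, from 408 ± 29.0 to 510 ± 13.1 CPM (SD, n = 3; log2 fold change 0.32, edgeR adjusted p = 0.000385). Mrpl41, a mitochondria-only protein, had 31.6, 28.0 and 32.2 CPM with PBS and 22.4, 22.3 and 21.5 with PM2.5 (log2 fold change -0.47, SE 0.07, edgeR adjusted p = 0.000106). The groups lay apart in both genes.

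Mrpl27, whose bacterial counterpart reaches into the peptidyl transferase centre, had 22.5, 20.1 and 18.1 CPM with PBS and 13.0, 16.2 and 15.8 with PM2.5 (log2 fold change -0.43, SE 0.11, edgeR adjusted p = 0.00431). The gap between its groups was narrow. Its exons overlap Eme1 by 75 bases on the opposite strand, which also fell, by 0.42 on the log2 scale (edgeR adjusted p = 0.000157). Mrpl34 fell from 19.0 ± 1.51 to 14.1 ± 1.47 CPM and Mrpl36 from 29.4 ± 0.533 to 23.2 ± 1.45 CPM (SD, n = 3; log2 fold changes of -0.43 and -0.34, edgeR adjusted p = 0.00195 and 0.000696). Both lost their call when GC content and gene length were fitted as offsets (log2 fold changes of -0.13 and -0.14, adjusted p = 0.249 and 0.073). Mrpl42, Mrpl11 and Mrpl33 fell by 0.32, 0.28 and 0.26 on the log2 scale, from 40.2, 25.8 and 36.4 to 32.3, 21.3 and 30.5 CPM (edgeR adjusted p = 0.000312, 0.00355 and 0.00318). Mrpl11 lies at the base of the stalk that Mrpl12 forms, and the 2 called members of the stalk moved in opposite directions.

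The 35 members that did not pass had log2 fold changes of -0.55 to 0.31, 18 positive and 17 negative, and groups apart in 8. In 27 of them the SE was under 0.1 and the log2 fold change between -0.18 and 0.16. From the large subunit these were Mrpl4, Mrpl10, Mrpl20, Mrpl22, Mrpl23, Mrpl24, Mrpl28, Mrpl30, Mrpl44, Mrpl48, Mrpl49, Mrpl51, Mrpl52 and Mrpl54, and from the small subunit Mrps11, Mrps12, Mrps14, Mrps15, Mrps16, Mrps17, Mrps18c, Mrps23, Mrps25, Mrps26, Mrps33, Mrps34 and Mrps35. Mrps12, which encodes the counterpart of the decoding-site protein S12, had 17.4 ± 0.858 CPM with PBS and 17.9 ± 1.37 with PM2.5 (SD, n = 3; edgeR adjusted p = 0.592), with overlapping groups. A small SE does not cover reads shared with other genes. Exons of Mrps25 share 4590 bases with Nr2c2 and those of Mrpl48 708 bases with Rab6a, on the opposite strand. Both partners were higher (log2 fold changes of 0.32 and 0.53, edgeR adjusted p = 8.74e-06 and 2.57e-07). Overlapping partners of Mrpl44 (Wdfy1) and Mrps34 (Nme3) were lower.

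In the other 8 (Mrpl2, Mrpl14, Mrpl15, Mrpl53, Mrpl57, Mrps21, Mrps24 and Mrps36) the SE was larger. Mrps21 had 26.9, 18.4 and 20.1 CPM with PBS and 12.8, 12.9 and 18.8 with PM2.5, so 1 PM2.5 library lay within the PBS range (log2 fold change -0.55, SE 0.22, edgeR adjusted p = 0.0746). Without that library, PM2.5 replicate 3, the adjusted p was 0.00868, and DESeq2 called it with all libraries (adjusted p = 0.00322). Mrpl2 had 24.0, 23.1 and 17.1 CPM with PBS and 32.2, 22.5 and 23.1 with PM2.5, which overlap (log2 fold change 0.28, SE 0.20, edgeR adjusted p = 0.265). Mrpl15 had 40.4, 44.4 and 46.1 CPM against 51.7, 63.9 and 46.4, where the groups nearly met (log2 fold change 0.31, edgeR adjusted p = 0.0694), and DESeq2 called this gene higher (adjusted p = 0.0102). Mrps36 had 3.31, 3.28 and 4.09 CPM with PBS and 3.19, 2.51 and 2.46 with PM2.5 (log2 fold change -0.39, SE 0.16, edgeR adjusted p = 0.0529).

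Transcript levels differed widely among the members. Their median was 9.90 to 10.1 FPKM in the PBS libraries and 10.4 to 11.5 FPKM in the PM2.5 libraries, and the SD of log2 FPKM over the 77 genes was 1.22 to 1.26 in all 6 libraries. Mrpl42 had the highest level over all libraries, 61.7 ± 2.05 FPKM with PBS and 47.4 ± 1.61 with PM2.5 (SD, n = 3). Mrps6 went from 36.3 ± 1.55 to 65.5 ± 3.43 FPKM and so passed Mrpl42 in the PM2.5 group. Mrpl43 (45.4 ± 1.14 and 51.6 ± 1.40 FPKM) and Mrpl4 (40.4 ± 3.05 and 38.7 ± 1.27 FPKM) came next, the former called higher and the latter not passed.

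At the low end were Mrps36 (1.38 ± 0.186 FPKM with PBS, 1.01 ± 0.153 with PM2.5), Mrps17 (1.76 ± 0.135 and 1.65 ± 0.0173), Mrpl48 (2.37 ± 0.235 and 2.13 ± 0.171) and Mrps10 (1.95 ± 0.180 and 2.58 ± 0.197; SD, n = 3 for each). The FPKM of Mrps17 and Mrps10 rest on table lengths of 13836 and 11986 bases, far above the median of 2722 for the members, and a long annotated length lowers FPKM. Across the 77 members, Spearman's rho of the log2 fold change was 0.15 with length, -0.06 with level and -0.29 with GC content. Over all tested genes these were 0.06, 0.08 and -0.10. Genes are not independent replicates, and these are descriptions without a test. The 38 longer members had a median log2 fold change of 0.28 (20 higher, 3 lower) and the 39 shorter ones 0.05 (13 higher, 6 lower). The shares of all genes tested were 35.2% higher and 35.3% lower.

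Many members share sequence with other genes. Exons of 32 members overlap those of another gene, 19 have a near-identical copy elsewhere (at least 250 bases at 95% identity or more), and 44 have either. Of the 33 members with neither, 17 were higher, 2 lower and 14 not passed, with a median log2 fold change of 0.30 and summed levels of 1024 to 1031 CPM with PBS and 1211 to 1251 CPM with PM2.5. Of the 44 with an overlap or a copy, 16 were higher, 7 lower and 21 not passed, with a median of 0.07. Among all genes tested 35.2% were higher and 35.3% lower. Copies named by the annotation include Gm13552 for Mrps18b (417 bases at 99.8%), Gm6578 for Mrpl32 (760 bases), Gm6434 for Mrpl41 (372 bases at 97.8%), Gm6304 for Mrpl27 (447 bases at 98.9%) and Gm6419 for Mrpl42 (429 bases at 96.3%), and the values of these members are uncertain to that extent. Among the 9 falls, 7 carry an overlap or a copy, and Mrpl34 and Mrpl11 carry neither. The part of shared reads in these values was not tested.

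Some members start next to a gene that points the other way. For 20 members such a head-to-head partner starts 3 to 935 bases away, and 18 partners were tested. The share of all genes with such a partner was not counted, and 70.6% of all genes tested passed the test. In 7 pairs both genes passed. Both were higher in 3 (Mrpl40 with Hira, Mrpl50 with Zfp189 and Mrps27 with Ptcd2), both lower in 1 (Mrpl41 with Pnpla7), and the partners moved oppositely in 3. In the latter, Mrps18b rose while Ppp1r10, a phosphatase regulator that starts 45 bases away, went from 113 ± 1.92 to 86.8 ± 2.77 CPM (SD, n = 3; log2 fold change -0.38, edgeR adjusted p = 5.26e-06). Mrpl32 rose while Psma2, a proteasome subunit 75 bases away, went from 171 ± 5.81 to 143 ± 8.39 CPM (SD, n = 3; log2 fold change -0.26, edgeR adjusted p = 0.000525). Mrpl55 rose and 2610507I01Rik fell. The members Mrpl46 and Mrps11 themselves overlap head to head, and Mrpl46 rose (log2 fold change 0.30, edgeR adjusted p = 0.000345) where Mrps11 did not pass (0.07, adjusted p = 0.368).

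The ribosome also contains proteins with other names. For these and the lists that follow, the shares of all genes tested were 35.2% higher and 35.3% lower. Of 6 in the table, Ptcd3 (54.2 ± 2.57 to 72.8 ± 1.66 CPM), Gadd45gip1 (34.5 ± 1.95 to 43.3 ± 2.37 CPM) and Chchd1 (21.1 ± 1.71 to 24.9 ± 0.576 CPM) were higher with PM2.5, by log2 fold changes of 0.43, 0.33 and 0.24 (SD, n = 3; edgeR adjusted p = 1.5e-05, 0.000775 and 0.0106). Ict1, a peptidyl-tRNA hydrolase built into the large subunit, was lower, at 23.9 ± 2.72 and 17.2 ± 1.56 CPM (SD, n = 3; log2 fold change -0.48, edgeR adjusted p = 0.00117). Dap3 and Aurkaip1, of the small subunit, did not pass (log2 fold changes of 0.03 and 0.00).

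Genes that build the ribosome were mostly higher. Of 24 assembly and rRNA-modification factors, 15 were higher, 2 lower and 7 not passed, with a median log2 fold change of 0.29. They included Trub2, a pseudouridine synthase (28.1 ± 1.15 to 47.6 ± 1.72 CPM), Mterf3 (24.6 ± 0.672 to 38.5 ± 0.706 CPM), Rnmtl1, an rRNA methyltransferase (9.59 ± 0.0858 to 17.5 ± 1.33 CPM), and Noa1, a GTPase (41.3 ± 2.76 to 61.8 ± 0.451 CPM; SD, n = 3 for each). Their log2 fold changes were 0.76, 0.65, 0.87 and 0.58 (edgeR adjusted p = 5.09e-07, 1.29e-06, 3.29e-06 and 4.12e-06). Of 16 genes for the replication, transcription and processing of mitochondrial DNA and RNA, 10 were higher and 0 lower, with a median of 0.36. Elac2, which cuts the ends of tRNAs, rose from 62.3 ± 2.05 to 108 ± 3.43 CPM, and Tfam, which packages mitochondrial DNA and starts its transcription, from 41.7 ± 1.42 to 64.8 ± 1.74 CPM (SD, n = 3; log2 fold changes of 0.80 and 0.63, edgeR adjusted p = 4.19e-08 and 6.42e-07). Mtpap and Supv3l1 rose by 0.75 and 0.71 on the log2 scale (edgeR adjusted p = 8.18e-08 and 5.2e-07).

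Translation factors did not share this direction, with 3 of 14 higher, 5 lower and 6 not passed (median -0.07). Since 35.3% of all genes tested were lower, the share of these factors that fell was near that of all genes. Mrrf, the ribosome recycling factor, fell from 46.9 ± 2.20 to 32.5 ± 1.53 CPM (SD, n = 3; log2 fold change -0.53, edgeR adjusted p = 1.31e-05). 2810006K23Rik, a release factor homologue, and Guf1, an elongation factor, fell by 0.90 and 0.47 on the log2 scale (edgeR adjusted p = 5.43e-05 and 0.000206), and Mtfmt, which formylates the initiator tRNA, rose by 0.37 (edgeR adjusted p = 0.000373). Of the 17 mitochondrial tRNA synthetases 6 were higher, 4 lower and 7 not passed, with a median of 0.14. Their higher share was near the 35.2% of all genes tested. Yars2 and Hars2 rose by 0.82 and 0.35 on the log2 scale, and Rars2 fell by 0.37 (edgeR adjusted p = 0.000624, 0.000814 and 0.000269).

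The mRNAs that this ribosome translates were not higher. Of the 13 encoded in mitochondrial DNA, 0 were higher, 7 lower and 6 not passed, with a median log2 fold change of -0.12. They took 4.76% to 5.14% of all counts in the PBS libraries and 4.18% to 4.30% in the PM2.5 libraries. Their most significant falls were mt-Cytb, mt-Nd1, mt-Co3 and mt-Nd5, by 0.32, 0.35, 0.31 and 0.55 on the log2 scale (edgeR adjusted p = 8.16e-06, 8.26e-06, 1.19e-05 and 1.93e-05). The rRNAs of the mitochondrial ribosome were not analysed here.

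**Figure D3:**
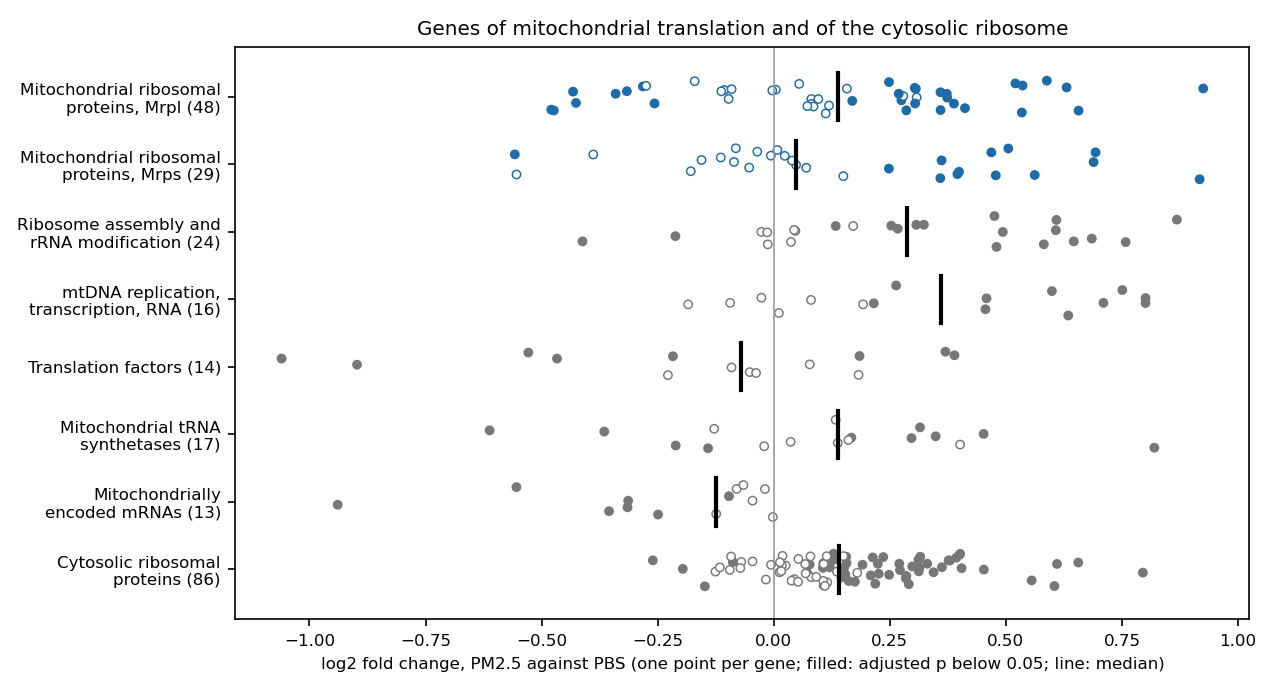
Log2 fold change of each gene in 8 groups, PM2.5 against PBS; filled points passed the adjusted threshold of 0.05 and the black line is the group's median. The members (blue) lie on both sides of 0, the assembly and mitochondrial DNA groups lie mostly to the right, and no mitochondrially encoded mRNA lies to the right of 0.

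Regulators of mitochondrial gene expression were mixed. Of 9 tested, Yy1 (104 ± 1.22 to 161 ± 1.86 CPM), Myc (141 ± 2.79 to 216 ± 4.24 CPM), Gabpa (94.2 ± 3.16 to 139 ± 11.9 CPM), Gabpb2 and Esrra were higher (log2 fold changes of 0.63, 0.62, 0.56, 0.20 and 0.38) and Ppargc1b lower (-0.57), with edgeR adjusted p of 2.83e-08, 4.17e-08, 2.62e-05 and 0.000162 for the first 4. Nrf1 did not pass (log2 fold change 0.16). For comparison, the cytosolic ribosome was described by 100 genes named Rpl or Rps, of which 95 were tested, with 53 higher, 7 lower and a median of 0.14. That name rule also takes the Rps6k kinases and Rps19bp1. Without these 11 genes, a choice made after their values were seen, 86 were tested, with 50 higher, 4 lower and a median of 0.14. Levels in this list were uneven. With PBS, Rps27 had 2.36 CPM and Rps29 1.67 CPM, against 231 CPM for Rps27rt and 2877 CPM for Rplp0. Near-identical copies were not searched for in this list, and the part of shared reads in its values was not tested. Genes whose names carry a suffix, such as Rpl7l1, Rpl22l1, Rps27l, Rps27rt and Rpl37rt, stayed in this shorter list and need not all encode parts of the ribosome. The smallest adjusted p in it were those of Rpl3, Rpl12, Rpl34 and Rpl7l1. Their log2 fold changes were 0.30, 0.56, 0.38 and 0.40 (edgeR adjusted p = 4.39e-06, 7.47e-06, 1.29e-05 and 1.29e-05). Under TMM scaling the mitochondrial and the cytosolic list thus both had more genes higher than lower, with medians of 0.11 and 0.14. The difference was not tested, and shared reads may weigh differently on the 2 lists. By upper quartiles the median of the mitochondrial members was 0.000716. The cytosolic list and the other lists above were not summarised under other scalings.

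**Figure D4:**
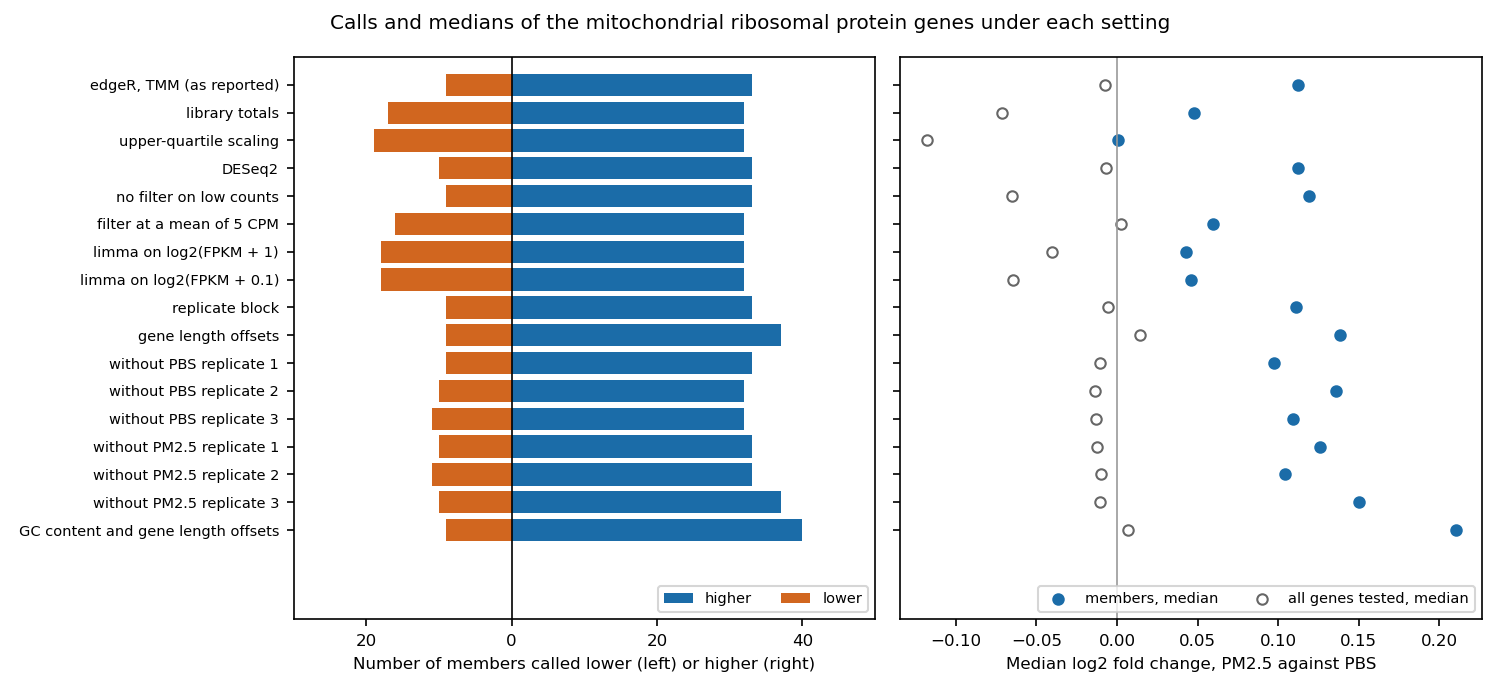
Members called higher or lower (left) and median log2 fold change of the members and of all genes tested (right) under the reported setting and 16 alternatives. The number higher lies between 32 and 40 and the number lower between 9 and 19, and the members' median lies above that of all genes in each setting.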

How the data were processed

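The authors deposited a table of raw counts per Ensembl gene for the 6 libraries, with FPKM values beside them, per the file headers. The deposited FPKM equal count over library total and a fixed gene length to within 0.0483% for 12207 genes with over 100 counts. TopHat2 2.0.6 and mm10 are named in the submitters' processing notes, while the counting program, its annotation and its handling of strand were not given in the sources used here.

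Genes were filtered on counts with filterByExpr, scaled by TMM and tested with edgeR 4.0.16 (quasi-likelihood test, 3 PBS against 3 PM2.5 libraries, no block). P-values were adjusted by Benjamini-Hochberg over 12967 genes, threshold 0.05. The fit was first run on simulated counts in which few genes changed, which does not cover a comparison in which most genes pass. Each SE given is the absolute log2 fold change divided by the square root of the test's F statistic. Genes tested held 99.9% of counts. Totals of 19511561 to 27215853 put 3 counts, a floor for counting error only, at 0.113 to 0.151 CPM. Alternatives used DESeq2 1.42.0, limma 3.58.1 on log2(FPKM + 1) or (FPKM + 0.1), other scalings and filters, offsets, a replicate block and leaving out each library. Overlaps and copies came from GENCODE M21 and BLAST 2.17.0, promoters from RefSeq.

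The members and lists were chosen with earlier results of these data known. Values are given for the 12 largest rises and all 9 falls that passed, the 4 highest and 4 lowest members in FPKM, 8 members named for their roles, up to 4 genes with the smallest adjusted p of each other list, and members whose values depend on a setting. For the cytosolic list these genes were taken after the Rps6k kinases and Rps19bp1 were left out. Other genes named, such as overlapping and neighbouring genes, were chosen after their values were seen. Values of 2 listed genes are not reported here.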

Additional observations from a re-analysis of the deposited data

How the results depend on the processing

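The counts of all genes called higher and lower, and the 32 to 40 members called higher, stayed within 1.5 times the reported values in all 16 alternatives. The members called lower were 9 as reported and 17 by library totals, 19 by upper quartiles, 16 with a filter at a mean of 5 CPM, and 18 by limma on log2(FPKM + 1) and 18 on log2(FPKM + 0.1). Their median log2 fold change, 0.11 as reported, was 0.0477, 0.000716, 0.0594, 0.0426 and 0.046 in these settings, 0.138 with offsets for gene length and 0.21 when GC content and length were both fitted as offsets, the last chosen after seeing the data, with 40 higher and 9 lower. The higher share of called members was 78.6% as reported and 65.3%, 62.7%, 66.7%, 64.0% and 64.0% in the first 5 of these; the cause was not tested. Leaving out each library in turn gave 32 to 37 higher, 9 to 11 lower and a median of 0.0975 to 0.15. Mrpl52 reversed from -0.00313 to 0.147 (adjusted p = 0.0429) with the GC and length offsets. Of the 77 members, 53 kept their call in all 16 alternatives, among them 32 of the 33 higher (not Mrpl40) and 7 of the 9 lower (not Mrpl34 and Mrpl36), and of the 35 that did not pass, 14 stayed so.

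Replicate numbers recur in both groups, and deviations of same-numbered libraries from their group means correlated at -0.0075, -0.0067 and 0.048. With 3 libraries a group, these values cannot show whether same-numbered libraries share a mouse or culture. With the replicate block, 33 members were higher and 9 lower with a median of 0.111, and all 77 kept their call. Libraries with the same number were not always the best correlated, as PBS replicate 1 and PM2.5 replicate 2 reached 0.0523. With 3 libraries a group and SEs of 0.04 to 0.22 on the log2 scale, changes of the size of the smallest called, 0.17, could be missed. This holds also for members with SEs below 0.1. Mrps16 (log2 fold change -0.18, SE 0.07, edgeR adjusted p = 0.0543) and Mrpl23 (-0.17, SE 0.09, edgeR adjusted p = 0.131) did not pass.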
